A study of Mus musculus with 24 samples.

Results

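Macrophages handle arginine through a small set of enzymes, and 7 genes of this set and of itaconate synthesis were followed here across genotype and stimulation. They were chosen by symbol, as Nos2, Ass1, Asl, Slc7a2, Odc1, Gch1 and Acod1, and each matched 1 row among the 55421 genes of the count table. All 7 passed the filter on low counts that left 16593 genes for testing. Nos2 encodes the inducible nitric oxide (NO) synthase, which turns arginine into NO and citrulline and needs the cofactor tetrahydrobiopterin, whose synthesis starts with the GTP cyclohydrolase Gch1. Slc7a2 carries cationic amino acids such as arginine into the cell, and Ass1 and Asl rebuild arginine from citrulline. Odc1 decarboxylates ornithine at the start of polyamine synthesis. Acod1 makes itaconate from cis-aconitate, an intermediate of the citric acid cycle. In macrophages Nos2 and Acod1 are classical genes of the response to bacterial products and interferons.

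RNA sequencing compared bone marrow-derived macrophages (BMDMs) of wildtype mice (WT) and of mice lacking the aryl hydrocarbon receptor from the germline on (AhR-KO, strain B6.129-Ahr tm1Bra/J), either unstimulated or stimulated on day 6 with 97 EU/ml LPS for 24 h. Each of the 4 groups held 6 libraries, 24 in all. The study describes adult mice of both sexes, matched for age and sex. Bone marrow of both genotypes was cultured with 10 ng/ml GM-CSF and 2 ng/ml TGF-β to obtain alveolar-like cells, and the protocol given for every sample ends with 5 µM of the calcium ionophore A23187 for 10 min. No group carried a transgene or Cre, and because the deficiency is present in every cell, the cells of the AhR-KO groups also differentiated without the receptor.

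Depth was 45106052 to 76992663 counts per library. Levels are given as CPM, counts per 1000000 counts of the library after scaling by the TMM factor. A gene was called a DEG when edgeR's quasi-likelihood test gave a Benjamini-Hochberg adjusted p of at most 0.05 over the 16593 genes and the change was at least 2-fold. The libraries are numbered 17 to 40, and each run of 8 numbers (17 to 24, 25 to 32, 33 to 40) contains 2 libraries from all 4 groups, so that genotypes can also be set side by side within a run. Whether a run was a batch is not given in the labels. Ddx3y, a gene of the Y chromosome, was below 1 CPM in WT library 34 (unstimulated) and WT library 38 (LPS) and at 62.5 to 95.6 CPM in the other 22, including all 12 AhR-KO libraries, so the groups were not matched for sex by this gene. Leaving out both libraries changed no DEG call and no interaction call of the 7 genes, but the AhR-KO over WT differences of Ass1 and Acod1 after LPS then had adjusted p of 0.0779 and 0.0595 (edgeR). AhR-KO library 19 (unstimulated) had the fewest genes with counts (17412) and the lowest slope of log2 level on log2 gene length of all 24 libraries (0.0952, beside 0.114 to 0.585 in the others). Ahr had a median of 30.7 CPM in WT and 7.40 in AhR-KO BMDMs without stimulation (log2 fold change -1.93 ± 0.36 SE, edgeR adjusted p = 9.71e-04), but 18.03 and 39.2 CPM after LPS (1.36 ± 0.35 SE, edgeR adjusted p = 0.011). These counts cover all exons, including those outside the disrupted part of the gene, and do not check the genotype labels. The 8 macrophage markers summed to between 14050 and 33720 CPM in all libraries, and Lyz2 had the highest mean of them in all 4 groups (13690 to 26480 CPM). None was a DEG between genotypes without stimulation. After LPS Fcgr1 was a higher DEG in AhR-KO cells (1139 against 482 CPM, log2 fold change 1.24, edgeR adjusted p = 0.00308). The 7 alveolar macrophage markers were all detected, with sums of 1435 to 1904 CPM in WT and 2378 to 3402 in AhR-KO cultures without stimulation and of 2085 to 3625 and 4316 to 6586 CPM after LPS. Car4 and Itgax had the highest means of this list in all 4 groups. The 7 lymphocyte markers were each below 1 CPM in all libraries. Neutrophil and granulocyte precursor markers were lower in AhR-KO cultures, with 10 of 11 lower DEGs without stimulation (summed 259 to 809 CPM against 1697 to 12720 in WT) and 8 of 11 after LPS (142 to 1021 against 734 to 8439 CPM). Of this list Mpo was below 1 CPM in all libraries, and no marker was at 0 in all. Of the 8 dendritic cell markers 5 were lower DEGs in AhR-KO cells in each state. These were Flt3, Ccr7, Dpp4 and Cd207 in both states, Cd209a only without stimulation and Zbtb46 only after LPS. Clec9a was a higher DEG without stimulation (2.53 CPM in WT, 6.42 in AhR-KO, log2 fold change 1.34, edgeR adjusted p = 0.00461). The list summed to 9.28 to 16.3 CPM in AhR-KO against 38.6 to 125 in WT without stimulation and to 101 to 894 against 567 to 2455 after LPS. Mast cell and basophil markers had 4 and 5 lower DEGs of 9, with sums of at most 53.6 CPM in any library. Beside these counts, 3.57% of all genes were lower DEGs without stimulation, and 8.36% were DEGs in either direction after LPS. The part of these lists in the genotype differences below was not tested, and in bulk samples fewer cells of a type and less RNA per cell cannot be told apart.

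Per kilobase of merged exons, Slc7a2 was the highest of the 7 genes without stimulation, at 135 ± 23.5 CPM per kb (SD, n = 6) in WT and 224 ± 21.1 in AhR-KO BMDMs, and Nos2 the lowest, at 0.155 ± 0.152 and 0.0960 ± 0.105 CPM per kb. Between them stood Ass1 and Odc1, and then Acod1, Gch1 and Asl in WT. The ranges over the 6 libraries overlapped between Ass1 and Odc1 and between Acod1 and Gch1, but not between other neighbours in this order. After LPS the order changed at the top and the bottom. Acod1 stood first with 1148 ± 125 CPM per kb in WT and 2039 ± 261 in AhR-KO cells, followed by Slc7a2 with 527 ± 144 and 704 ± 137, and neither range overlapped that of the next gene. Asl was then the lowest with 8.24 ± 1.72 and 9.62 ± 0.971 CPM per kb. By this measure Acod1 was the 67th most abundant of all genes in LPS-stimulated WT and the 35th in LPS-stimulated AhR-KO BMDMs, and Nos2 held place 2179 in WT and 594 in AhR-KO cells. Ass1 stands in both orders with the counts assigned to it alone. Its copy Gm5424, with 99.52% identity, took more counts in all 4 groups (597 CPM against 136 for Ass1 in unstimulated WT). How reads were divided was not tested, so the place of Ass1 in both orders, also against Slc7a2, is uncertain.

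**Figure D1:**
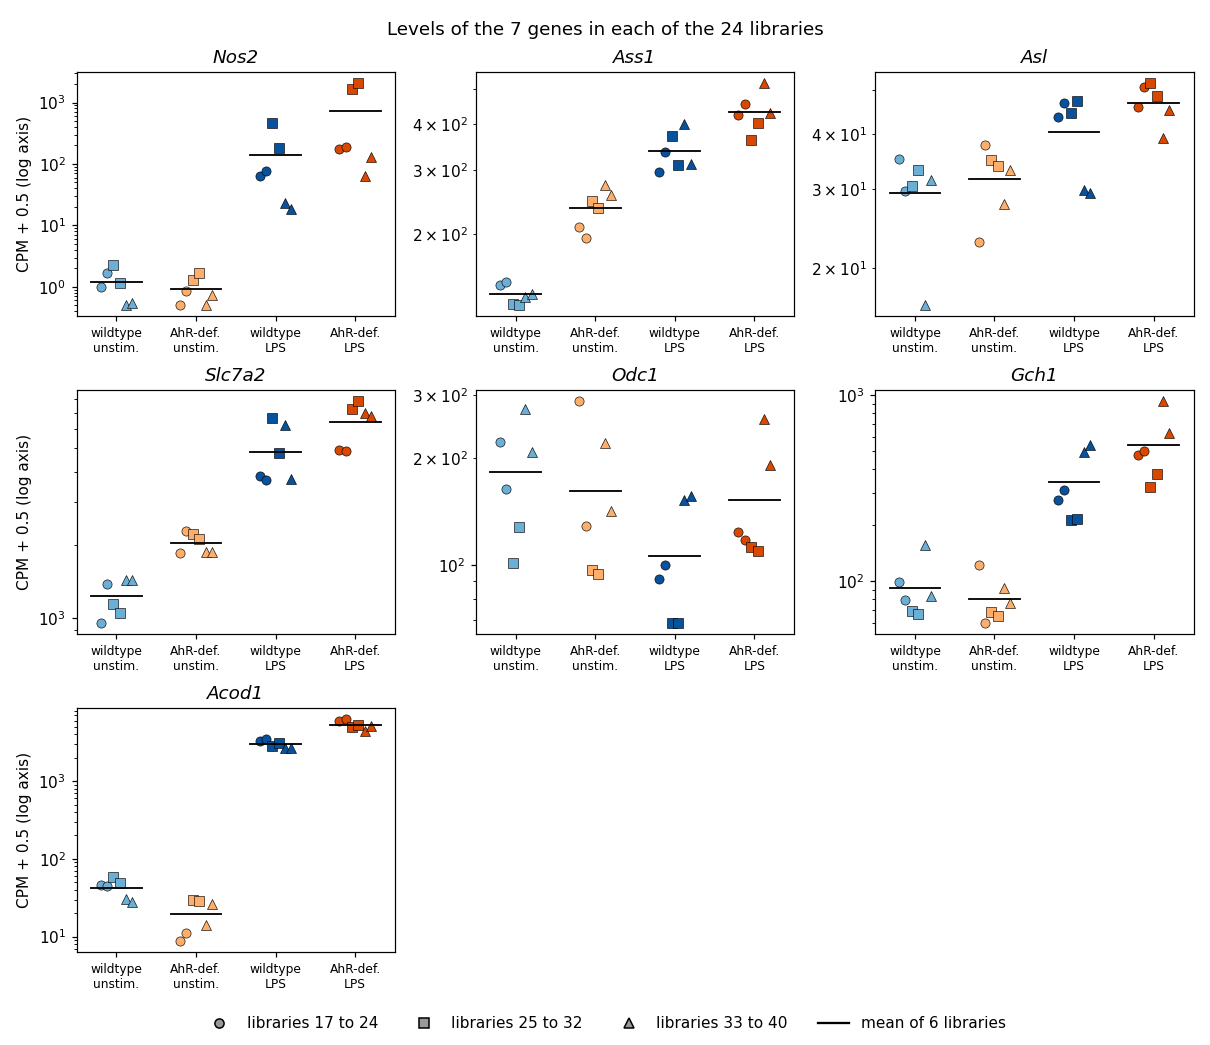
Level of each of the 7 genes in each of the 24 libraries, as CPM + 0.5 on a log axis, by genotype and stimulation, with the 3 runs of library numbers as point shapes and the mean of 6 libraries as a line. Acod1 and Nos2 separate the LPS-stimulated from the unstimulated libraries most widely, and the 6 AhR-KO libraries of Acod1 lie below most WT libraries without stimulation and above all of them after LPS.

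LPS raised most of the set. In WT BMDMs 5 of the 7 genes were DEGs and all 5 were higher (Nos2, Ass1, Slc7a2, Gch1 and Acod1), where 24.9% of all tested genes were DEGs and 13.2% were higher ones. The AhR-KO cells had 4 higher DEGs (Nos2, Slc7a2, Gch1 and Acod1), against 30.8% DEGs and 15.1% higher DEGs among all genes. The median log2 fold change of the 7 genes was 1.89 in WT and 1.655 in AhR-KO cells, beside 0.03 and -0.03 over all tested genes. In 5 of the 7 genes in WT and 6 in AhR-KO cells every LPS-stimulated library lay above every unstimulated one, which 11.4% and 14.4% of all genes did.

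**Figure D2:**
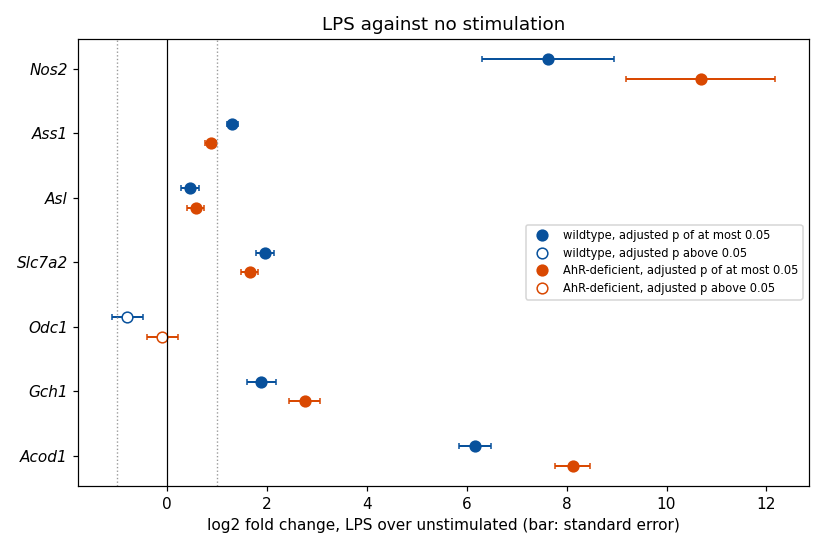
Log2 fold change of LPS-stimulated over unstimulated BMDMs for the 7 genes in WT (blue) and AhR-KO cells (orange), with bars for the standard error, filled points for an adjusted p of at most 0.05 and dotted lines at a 2-fold change. Nos2 and Acod1 lie furthest to the right in both genotypes, and Odc1 is the gene with estimates below 0 in both.

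Genotype moved fewer of them. Without stimulation 1 of the 7 genes was a DEG, the lower Acod1, where 4.48% of all genes were DEGs and 3.57% were lower ones. Without a minimum fold change 3 genes passed the test (Ass1, Slc7a2 and Acod1) beside 6.12% of all genes. After LPS none of the 7 was a DEG by edgeR, DESeq2 or limma-voom, where edgeR called 8.36% of all genes, although 5 had an unadjusted p of at most 0.05, as did 3814 of all genes (23%). Without a minimum fold change 2 passed, Ass1 and Acod1, beside 12.6% of all genes. The estimate after LPS was above 0 for all 7 genes, except that Asl was at -0.011 when library totals replaced the TMM scaling, with a median of 0.52 beside -0.05 over all genes. The test of the difference between both genotype effects, the interaction of genotype and LPS, called 1 of 7 genes, Acod1, beside 4.3% of all genes.

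**Figure D3:**
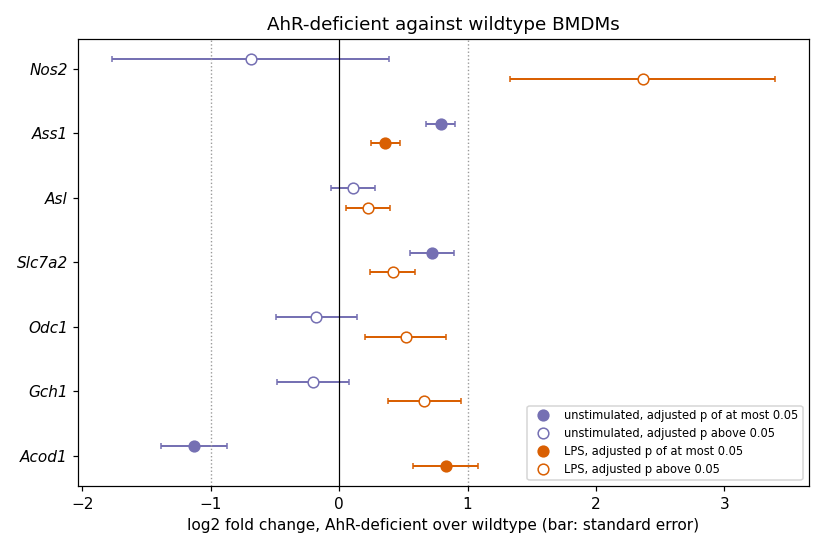
Log2 fold change of AhR-KO over WT BMDMs for the 7 genes, unstimulated (purple) and after LPS (orange), with bars for the standard error, filled points for an adjusted p of at most 0.05 and dotted lines at a 2-fold change. Acod1 lies to the left of 0 without stimulation and to the right after LPS, both with filled points.

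Nos2 (ENSMUSG00000020826, a protein-coding gene at chr11:78920787-78960254 of mm10, plus strand) was close to absent without stimulation, with a median of 0.576 CPM in WT (0 to 1.75) and 0.295 CPM in AhR-KO BMDMs (0 to 1.16), that is 0 to 143 and 0 to 73 counts per library. The genotype difference in this state, a log2 fold change of -0.69 ± 1.08 (SE), did not pass the test (edgeR adjusted p = 1). LPS-stimulated WT libraries had 17.7 to 471 CPM with a median of 69.9. LPS-stimulated AhR-KO libraries had 63.0 to 2081 CPM with a median of 182. Both LPS groups lay above all unstimulated libraries, and their own ranges overlapped. LPS raised Nos2 by a log2 fold change of 7.63 ± 1.32 in WT (edgeR adjusted p = 6.03e-05) and 10.68 ± 1.497 in AhR-KO cells (edgeR adjusted p = 2.62e-06). The AhR-KO over WT estimate after LPS was 2.36 ± 1.03, a 5.15-fold higher level that did not pass the test (edgeR adjusted p = 0.159). Single libraries moved these values, and the genotype estimate was 1.66 without AhR-KO library 32 (edgeR adjusted p = 0.396), 3.30 without WT library 29 (edgeR adjusted p = 0.0564) and 1.63 without libraries 25 to 32. The LPS effect was 6.69 in WT without library 29 and 9.98 in AhR-KO cells without library 32, and it remained called.

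The spread of Nos2 followed the runs of library numbers. In libraries 17 to 24 WT had 63.9 and 75.8 CPM after LPS against 178 and 187 in AhR-KO cells. In libraries 25 to 32 the values were 471 and 185 against 1665 and 2081 CPM. In libraries 33 to 40 they were 22.4 and 17.7 against 63.0 and 130 CPM. Thus the highest libraries of both genotypes belonged to the same run, and within each run both AhR-KO libraries were above both WT libraries, with differences of mean log2(CPM + 0.5) of 1.38, 2.66 and 2.16. Such a separation, higher in AhR-KO cells within all 3 runs after LPS, was shared by Slc7a2, Odc1, Gch1 and Acod1, and was seen in 10.5% of all genes. With the run as a factor in the fit the Nos2 difference passed (log2 fold change 2.15, edgeR adjusted p = 0.00278), and it also passed with each library's slope on gene length as a covariate (2.44, edgeR adjusted p = 5.09e-05), while the other 35 alternatives did not call it. The interaction of Nos2, 3.05 ± 1.48 (SE), did not pass (edgeR adjusted p = 0.375). It passed in 2 of 36 alternatives, with the run as a factor and with the length slope.

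**Figure D4:**
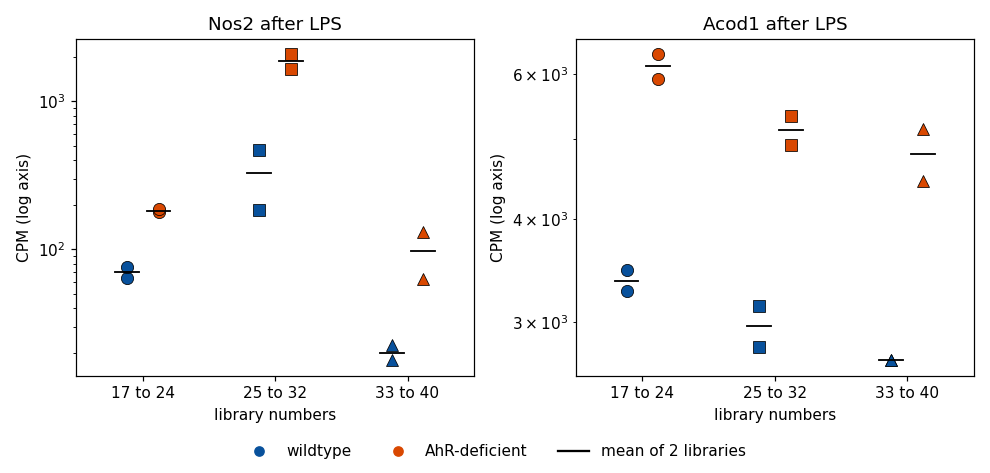
Nos2 and Acod1 in the 12 LPS-stimulated libraries, as CPM on a log axis, split by the run of library numbers, with WT in blue, AhR-KO in orange and the mean of 2 libraries as a line. For both genes the 2 AhR-KO libraries stand above the 2 WT libraries in each run. Nos2 shifts between runs in both genotypes, whereas all AhR-KO libraries of Acod1 stand above all WT libraries.

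Gch1 (ENSMUSG00000037580, chr14:47153895-47189413, minus strand), which supplies the cofactor of Nos2 and overlaps the processed pseudogene Gm18811 on its own strand, had a median of 80.8 CPM in unstimulated WT (66.4 to 156) and 71.7 in AhR-KO BMDMs (59.1 to 122). After LPS the medians were 291 (214 to 538) and 489 CPM (321 to 932). All LPS-stimulated libraries lay above all unstimulated ones, while the genotypes overlapped in both states. LPS raised Gch1 3.70-fold in WT (log2 1.89 ± 0.29 SE, edgeR adjusted p = 1.47e-05) and 6.75-fold in AhR-KO cells (2.76 ± 0.30, edgeR adjusted p = 6.94e-08). AhR-KO over WT after LPS was 0.66 ± 0.28 and did not pass (edgeR adjusted p = 0.149), and the interaction of 0.87 ± 0.40 did not pass either (edgeR adjusted p = 0.338). The genotype difference after LPS passed in 3 of 37 alternatives, always under 2-fold, with the run as a factor (0.68, edgeR adjusted p = 0.0115), with the length slope (0.595, edgeR adjusted p = 9.02e-06) and without libraries 33 to 40 (0.79, edgeR adjusted p = 0.0378). The interaction passed in 1 of 36, with the length slope (0.74, edgeR adjusted p = 1.74e-04). Within runs the AhR-KO excess after LPS was 0.75, 0.70 and 0.57 on the log2(CPM + 0.5) scale.

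Of 6 other genes of tetrahydrobiopterin synthesis and recycling 5 were tested, and none was a DEG between genotypes in either state. Between genotypes 4.48% of all genes were DEGs without stimulation and 8.36% after LPS. LPS lowered 1 of the 5 in WT (Qdpr) and 3 in AhR-KO cells (Qdpr, Gchfr and Pts) and raised none, where 24.9% and 30.8% of all genes were DEGs under LPS. Qdpr, which recycles the oxidised cofactor, fell from a mean of 273 to 123 CPM in WT and from 362 to 111 CPM in AhR-KO cells. The median log2 fold change of the list under LPS was -0.61 in WT and -1.09 in AhR-KO cells. Among other NO synthases and genes of NO handling 3 of 8 were tested, and Ddah2, which degrades an inhibitor of NO synthases, was a lower DEG in AhR-KO cells after LPS (0.989 CPM in WT, 0.406 in AhR-KO, log2 fold change -1.28, edgeR adjusted p = 0.0334).

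Slc7a2 (ENSMUSG00000031596, chr8:40862396-40922308, plus strand) was abundant in all cultures. Unstimulated WT libraries had 956 to 1445 CPM with a median of 1265. Unstimulated AhR-KO libraries had 1865 to 2278 CPM with a median of 2003. Every AhR-KO library was thus above every WT library, as in 1.71% of all genes. The difference was 1.65-fold (log2 0.72 ± 0.17 SE, edgeR adjusted p = 0.00929), under the 2-fold threshold, and its adjusted p was above 0.05 without libraries 17 to 24 or 25 to 32 among 37 alternatives. After LPS the medians were 4308 CPM in WT (3711 to 6628) and 6866 CPM in AhR-KO cells (4873 to 7828), which overlapped, and the log2 fold change of 0.42 ± 0.17 did not pass (edgeR adjusted p = 0.13), while 2 of 37 alternatives passed without reaching 2-fold. LPS raised Slc7a2 3.89-fold in WT and 3.15-fold in AhR-KO BMDMs (edgeR adjusted p = 5.35e-09 and 4.04e-08), and the interaction of -0.31 ± 0.24 did not pass (edgeR adjusted p = 0.772).

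All 7 other genes of cationic amino acid transport were tested. Between genotypes 1 was a DEG without stimulation (Slc25a29) and 2 were after LPS (Slc25a29 and Slc7a3), where 4.48% and 8.36% of all genes were. Slc25a29, a mitochondrial carrier of basic amino acids, had means of 1.41 CPM in WT and 0.367 in AhR-KO cells without stimulation, and of 13.3 and 0.129 CPM after LPS (log2 fold changes -1.94 and -6.67, edgeR adjusted p = 0.00421 and 6.89e-09). LPS raised it in WT and lowered it in AhR-KO cells, with an interaction of -4.73 (edgeR adjusted p = 7.44e-05). Slc7a3, another cationic transporter, was lower in AhR-KO cells after LPS at 0.204 against 2.01 CPM (log2 -3.27, edgeR adjusted p = 0.00916). Slc3a2, the heavy chain partner of several amino acid transporters, rose under LPS from 179 to 569 CPM in WT and from 173 to 638 CPM in AhR-KO cells.

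Ass1 (ENSMUSG00000076441, chr2:31470207-31520672, plus strand) showed the narrowest spread of the set in unstimulated WT, with 127 to 147 CPM and a median of 135. Unstimulated AhR-KO libraries had 194 to 273 CPM with a median of 241. No library of one genotype reached the range of the other, and the log2 fold change was 0.79 ± 0.11 (SE, edgeR adjusted p = 3.63e-05), a 1.73-fold higher level that stayed under the 2-fold threshold. The adjusted p was at most 0.00717 in all 37 alternatives. After LPS the medians were 322 CPM in WT (296 to 401) and 427 in AhR-KO cells (362 to 519), with overlapping ranges and a log2 fold change of 0.36 ± 0.11 (edgeR adjusted p = 0.0322), which passed in 22 of 37 alternatives. LPS raised Ass1 2.47-fold in WT (log2 1.31 ± 0.11, edgeR adjusted p = 2.27e-09). In AhR-KO cells its level was 1.83-fold higher after LPS (0.88 ± 0.11, edgeR adjusted p = 6.14e-07), and the interaction of -0.43 ± 0.16 did not pass (edgeR adjusted p = 0.151), while 2 of 36 alternatives passed.

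Counts of Ass1 are uncertain because of a near-identical copy. The transcript of Gm5424 aligned to Ass1 over 1240 bases with 99.52% identity, and Gm5424 took more counts than Ass1 itself, with means of 597, 1012, 1471 and 1882 CPM in unstimulated WT, unstimulated AhR-KO, LPS-stimulated WT and LPS-stimulated AhR-KO BMDMs. Its AhR-KO over WT differences were 0.76 without stimulation and 0.36 after LPS (edgeR adjusted p = 1.17e-04 and 0.0475), close to those of Ass1, and its profile over the 24 libraries was the closest to Ass1 of all genes. How reads were divided between both genes was not tested.

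The promoter table used here, taken from RefSeq (GRCm38.p6), held 4 of the 7 genes, Ass1, Odc1, Gch1 and Acod1, and in the 250 bases before their annotated start 6 motifs were searched on both strands. GCGTG, the core letters of the element bound by AhR with its partner Arnt, occurred in 28.2% of 32851 promoters of this length. Ass1 held 2 matches and Odc1 held 3, while Gch1 and Acod1 held none. TATAAA, found in 12.4% of promoters, had 1 match in Acod1, from 28 to 23 bases before its start, and 1 on the other strand of Gch1. A kappaB match, given by name of the motif, was found in Gch1 and in 7.25% of all promoters. TTCNNNGAA (7.02% of promoters), TGACGTCA (1.55%) and the interferon-stimulated response element, also by name (2.98%), had no match in the 4 windows, and no matches of different motifs overlapped. Ass1 and Acod1 are printed below because their levels passed the genotype test in both states. Capitals mark GCGTG on the other strand, read here as CACGC, and the bases shown end before the gene start of GENCODE M21, which lies inside both RefSeq windows and leaves the TATAAA match of Acod1 outside the printed bases.
Ass1, chr2:31470020-31470206, plus strand: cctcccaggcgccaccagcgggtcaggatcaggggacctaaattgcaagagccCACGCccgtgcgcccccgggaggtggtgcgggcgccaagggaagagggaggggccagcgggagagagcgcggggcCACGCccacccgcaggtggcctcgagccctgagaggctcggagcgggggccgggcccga
Acod1, chr14:103046762-103046976, plus strand: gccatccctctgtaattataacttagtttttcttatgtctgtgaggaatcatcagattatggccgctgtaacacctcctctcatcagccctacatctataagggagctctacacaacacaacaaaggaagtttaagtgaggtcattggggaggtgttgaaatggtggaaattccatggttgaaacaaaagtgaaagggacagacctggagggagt

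Asl (ENSMUSG00000025533, chr5:130011258-130029247, minus strand), which completes the return from citrulline to arginine, had the lowest level per kilobase of the set after LPS. Medians were 30.5 CPM in unstimulated WT (16 to 34.6) and 33.01 in unstimulated AhR-KO BMDMs (22.3 to 37.2). After LPS they were 43.6 CPM (29.03 to 47.0) and 46.7 CPM (38.6 to 51.5). The genotypes overlapped in both states, with log2 fold changes of 0.11 ± 0.17 (SE) and 0.22 ± 0.17 (edgeR adjusted p = 1 and 0.539), and after LPS 1 of 37 alternatives passed, under 2-fold. Under LPS the level was 1.38-fold higher in WT and 1.49-fold higher in AhR-KO cells (edgeR adjusted p = 0.0374 and 0.00852), and the test passed in 24 and 34 of 37 alternatives.

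Of 12 other genes of arginine, ornithine and proline metabolism 9 were tested. Among all genes 4.48% were DEGs between genotypes without stimulation and 8.36% after LPS. Nags, which makes the activator of the urea cycle's entry enzyme, was a higher DEG in AhR-KO cells in both states, with means of 0.984 against 3.42 CPM without stimulation and 8.18 against 19.9 CPM after LPS (log2 fold changes 1.79 and 1.28, edgeR adjusted p = 4.28e-04 and 0.0049). After LPS Gatm, which uses arginine in creatine synthesis, was higher in AhR-KO cells at 648 against 227 CPM (1.52, edgeR adjusted p = 0.012). Prodh, the proline dehydrogenase, was lower at 0.555 against 2.00 CPM (-1.85, edgeR adjusted p = 7.38e-04). LPS raised Nags and Gatm in both genotypes and lowered Prodh in AhR-KO cells.

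Odc1 (ENSMUSG00000011179, chr12:17544794-17551505, plus strand), which lies on the same chromosome as Ahr, 17.9 Mb away, did not rise with LPS. Unstimulated medians were 185 CPM in WT (101 to 275) and 135 in AhR-KO BMDMs (93.4 to 289). After LPS they were 94.95 CPM in WT (67.9 to 155) and 120 in AhR-KO cells (109 to 257). All groups overlapped. The LPS effect was -0.79 ± 0.32 in WT and -0.09 ± 0.31 in AhR-KO cells (edgeR adjusted p = 0.0526 and 0.845), and the interaction of 0.70 ± 0.44 did not pass (edgeR adjusted p = 0.616). The lower level in WT had an adjusted p of at most 0.05 in 16 of 37 alternatives, with values between 1.88e-06 and 0.237 over all of them, and was a DEG in 1, with library totals (-1.14, edgeR adjusted p = 8.67e-04). The interaction passed in 1 of 36, with the length slope (0.63, edgeR adjusted p = 0.00189). Within each of the 3 runs both LPS-stimulated WT libraries lay below both unstimulated ones, with differences of -0.999, -0.73 and -0.63, where 20.2% of all genes showed this pattern. AhR-KO over WT was -0.18 ± 0.31 without stimulation and 0.52 ± 0.32 after LPS (edgeR adjusted p = 1 and 0.371), and the latter passed in 1 of 37 alternatives, under 2-fold. Counts of Odc1 can be shared with copies, since 19 genes aligned to its transcript over at least 300 bases with at least 85% identity and 10 of them reached a mean of 1 CPM in a group, led by Gm7993 with 37.5 to 62.4 CPM. No such copy was found for the 5 genes other than Ass1 and Odc1.

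Of 16 listed polyamine genes beyond Odc1 15 were tested and none was a DEG between genotypes in either state. The shares of all genes were 4.48% without stimulation and 8.36% after LPS, so few calls would be met in a list of this size. In WT LPS raised Azin2, Smox and Dhps and lowered Srm and Paox, and in AhR-KO cells the same 5 genes passed in the same directions together with a lower Amd1, where 24.9% and 30.8% of all genes were DEGs. Smox, the spermine oxidase, rose from 34.8 to 112 CPM in WT and from 26.6 to 192 CPM in AhR-KO cells. Srm, the spermidine synthase, fell from 31.3 to 7.26 CPM and from 22.6 to 6.18 CPM. The list's median log2 fold change was -0.13 in WT and 0.11 in AhR-KO cells.

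Acod1 (ENSMUSG00000022126, chr14:103046977-103056573, plus strand) was the gene of the set whose genotype difference passed the test in both states with opposite signs. Unstimulated WT libraries had 26.98 to 57.5 CPM with a median of 44.9. Unstimulated AhR-KO libraries had 8.25 to 29.1 CPM with a median of 19.6. The AhR-KO group was lower and both ranges overlapped between 26.98 and 29.1 CPM. The log2 fold change was -1.13 ± 0.26 (SE, edgeR adjusted p = 0.00639), a 2.19-fold lower level. By run it was -2.20, -0.86 and -0.60 in mean log2(CPM + 0.5), with both AhR-KO libraries below both WT libraries in each run, as for 5.58% of all genes. The call was lost without AhR-KO library 19, since the change of -0.97 without it (edgeR adjusted p = 0.0119) was under 2-fold. Library 19 had the lowest Acod1 level of all 24 (8.25 CPM), followed by AhR-KO library 20 of the same run (10.7 CPM). It also had the fewest genes with counts (17412, next 17877) and the lowest length slope (0.0952, next 0.114). The call was further lost without libraries 17 to 24 (-0.73, edgeR adjusted p = 0.335) and with only the 12 unstimulated libraries in the fit (-1.10, edgeR adjusted p = 0.0926).

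After LPS the order was turned. WT libraries had 2694 to 3466 CPM of Acod1 with a median of 2968. AhR-KO libraries had 4444 to 6337 CPM with a median of 5237. Every AhR-KO library lay above every WT library, as in 2.59% of all genes, and the spread within groups was small, with a coefficient of variation of 10.9% in WT and 12.8% in AhR-KO cells. The difference was 1.78-fold (log2 0.83 ± 0.26, edgeR adjusted p = 0.0336), under the 2-fold threshold. By run it was 0.86, 0.79 and 0.83. Its adjusted p was at most 0.05 in 22 of 37 alternatives, between 0.0013 and 0.183 over all of them, and the estimate stayed between 0.61 and 0.89.

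The LPS effect on Acod1 was 71.6-fold in WT (log2 6.16 ± 0.32, edgeR adjusted p = 7.4e-13) and 278-fold in AhR-KO BMDMs (8.12 ± 0.35, edgeR adjusted p = 1.46e-14). The interaction was 1.96 ± 0.36 (edgeR adjusted p = 0.00204) and passed in 35 of 36 alternatives, the exception being the fit without libraries 17 to 24 (1.59, edgeR adjusted p = 0.0981). An adjusted p of at most 0.05 in both genotype comparisons with opposite signs was found for 30 genes, 0.181% of those tested. Acod1 was 1 of 22 (0.133%) that were lower in AhR-KO cells without stimulation, higher after LPS and past the interaction test. The genes with the most similar profile over the 24 libraries, by the root mean square difference of centred log2(CPM + 0.5), were Irf7 (0.48), Oasl1 (0.62) and Rsad2 (0.64). Mean Irf7 levels were 34.2 CPM in unstimulated WT, 12.4 in unstimulated AhR-KO, 1567 in LPS-stimulated WT and 3560 in LPS-stimulated AhR-KO BMDMs. For Nos2 the nearest profiles were Thbs4, Ifi206 and Il12b at 1.12 to 1.19. For Slc7a2 they were Gng12, Btg1 and Slc23a2 at 0.23 to 0.26, and for Gch1 they were Slfn2, Idnk and Rnf114 at 0.17 to 0.23.

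Of the enzymes around itaconate in the citric acid cycle all 22 listed genes were tested, and 5 were DEGs under LPS in WT, all lower (Idh2, Suclg2, Idh1, Idh3a and Fh1). The same 5 were lower DEGs in AhR-KO cells, with Rab32 higher. Counted in both directions, these numbers are near the shares of all genes that were DEGs, 24.9% and 30.8%. Higher DEGs made up 13.2% and 15.1% of all genes, so lower DEGs alone were a smaller share than these. Between genotypes none was a DEG without stimulation, and Suclg2, a subunit of succinyl-CoA ligase, was lower in AhR-KO cells after LPS with means of 8.09 CPM in WT and 3.10 in AhR-KO (log2 -1.38, edgeR adjusted p = 2.98e-05). The genotype shares of all genes were 4.48% without stimulation and 8.36% after LPS. The interaction was called for Suclg2 (-1.35, edgeR adjusted p = 0.00478), the cytosolic isocitrate dehydrogenase Idh1 (-0.91, edgeR adjusted p = 0.0254) and the citrate carrier Slc25a1 (-0.78, edgeR adjusted p = 0.0358), each with an LPS effect more negative in AhR-KO cells. The median LPS effect of the list was -0.14 in WT and -0.25 in AhR-KO cells.

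Among 32 known inducers and regulators of these enzymes, 31 were tested. Without stimulation none was a DEG between genotypes, where 4.48% of all genes were, against 8.36% of all genes after LPS. After LPS Irf8, a transcription factor of the interferon response, was lower in AhR-KO cells with 69.2 against 956 CPM (log2 fold change -3.79, edgeR adjusted p = 3.06e-07), and Il6 was higher with 1909 against 587 CPM (1.70, edgeR adjusted p = 0.00153). Irf8 rose with LPS in WT from 111 CPM, whereas its change from 63.2 CPM in AhR-KO cells did not pass, with an interaction of -2.97 (edgeR adjusted p = 7.81e-04). The interaction was also called for Il6 (2.71, edgeR adjusted p = 0.00204), for Tnf (1.26, edgeR adjusted p = 0.0229) and for Hif1a, the hypoxia-inducible factor (0.74, edgeR adjusted p = 0.00827), all with a larger LPS effect in AhR-KO cells. LPS raised 18 and lowered 3 of the 31 genes in WT and raised 19 and lowered 4 in AhR-KO cells, where 24.9% and 30.8% of all genes were DEGs. The smallest p in WT were those of Il1b (216-fold), Cd14 (39.98-fold) and Ifngr2 (3.18-fold), whereas Il6 rose more by fold (348-fold).

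Of 15 genes linked to alternative activation 11 were tested. Among all genes 4.48% were DEGs between genotypes without stimulation and 8.36% after LPS. Without stimulation the chemokine Ccl17 was higher in AhR-KO cells, with means of 3274 against 629 CPM (log2 2.38, edgeR adjusted p = 7.15e-05), and the signalling inhibitor Socs1 lower, with 8.40 against 26.1 CPM (-1.63, edgeR adjusted p = 3.19e-06). After LPS Socs2 was lower at 58.8 against 191 CPM (-1.70, edgeR adjusted p = 4.56e-05) and Irf4 higher at 297 against 145 CPM (1.04, edgeR adjusted p = 0.0246). Interactions were called for Socs1 (1.63, edgeR adjusted p = 5.93e-04) and Socs2 (-1.46, edgeR adjusted p = 0.0162). Socs3, a signalling inhibitor of the same family, rose under LPS in both genotypes, from 39.5 to 557 CPM in WT and from 38.5 to 821 CPM in AhR-KO cells. Pdcd1lg2, which encodes the PD-1 ligand PD-L2, rose from 13.3 to 85.7 CPM in WT and from 13.45 to 135.5 CPM in AhR-KO cells, and Socs1 rose from 26.1 to 119.8 and from 8.40 to 119.3 CPM. LPS raised 6 and lowered 5 of the 11 genes in WT and raised 4 and lowered 3 in AhR-KO cells, where 24.9% and 30.8% of all genes were DEGs.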

How the data were processed

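mRNA libraries of 24 BMDM cultures were made with a directional kit. Per the file headers and the labels, the authors demultiplexed with bcl2fastq 2.20.0, aligned read pairs to mm10 with GSNAP and assigned fragments to Ensembl 98 genes by strand with featureCounts 2.0.1. What was deposited are the raw counts per gene, not normalized, and the merged exon length of each gene. Spike-in sequences (92, with 1 count in all) were left out. Symbols for 55154 genes, positions and transcripts came from GENCODE M21.

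Counts were fitted with edgeR 4.0.16 (R 4.3.3) over all 24 libraries, with a coefficient for each of the 4 groups, TMM scaling, filterByExpr and robust quasi-likelihood F-tests, adjusted by Benjamini-Hochberg over 16593 genes. The biological coefficient of variation was 49.1%, so the spread between libraries exceeds counting error for all but scarce genes. Calls needed an adjusted p no higher than 0.05 together with a 2-fold difference, except for the interaction, which had no fold threshold. The fit was tested on simulated data. Levels in log2 form are log2(CPM + 0.5). Copies of the 7 transcripts were searched among all transcripts.

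The study took 6 animals per group, and the labels do not tie any 2 libraries to 1 animal, so p-values measure the spread between these libraries. Pairs of libraries of a group differed by more than sampling noise (60 pairs). The 7 genes, the pathway and marker lists and the tests were chosen with earlier results of these data known. Named are the 7 genes, Ahr, the 3 called genes with the smallest p of each pathway list in both genotype comparisons and in LPS over unstimulated WT, those called in the interaction, and the 3 nearest profiles. Other list genes are named where a count was of 6 or fewer, or to show which genes make up the sum or direction of a marker list. They were chosen after their values were seen. Other genes of the set and 1 gene of a pathway list are not reported here.

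Alternatives were DESeq2 size factors, library totals, no filter, a mean of at least 1 CPM, DESeq2 1.42.0, limma-voom 3.58.1, the 12 libraries compared, a factor for the run of library numbers, each library's slope on gene length as a covariate, no minimum fold change and each library left out in turn. Leaving out each run of 8 libraries, and both libraries under 1 CPM of the Y-linked Ddx3y, was added after seeing the data.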

Additional observations from a re-analysis of the deposited data

Results flagged for a closer look

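In unstimulated WT BMDMs Asl was lowest in library 33 with 16 CPM, where the other 5 libraries had 29.3 to 34.6 CPM. The gap to the next library was 0.784 of the group's range on the log2 scale, above Dixon's 95% critical value for 6 libraries. It was the single one of 28 groups tested that passed, and chance alone gives about 1 in 20.

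The interaction of genotype and LPS of Acod1 was 1.96 on the log2 scale. The level in AhR-KO over WT BMDMs changed from 19.2 against 42.1 CPM without stimulation to 5347 against 3010 CPM after LPS (means of 6 libraries).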

How the results depend on the processing

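Over 35 results of single genes 19 kept their call in every alternative. Of 546 alternative values 519 kept direction and call, 16 gained and 5 lost the call and 6 changed sign. Of the fits with 1 library left out, these values hold only the lowest and the highest estimate of each result. In unstimulated cells the count of 1 DEG among the 7 genes was 0 with only the 12 libraries compared and without libraries 17 to 24, 3 without a minimum fold change, and 0 to 1 with a library left out (0 without AhR-KO library 19). After LPS the count of 0 was 1 (Nos2) with the run as a factor or the length slope, 2 without a minimum fold change, and 0 with any library left out. The interaction count of 1 was 2 with library totals (Ass1 added, -0.57) and with the run factor (Nos2 added, 3.01), 5 with the length slope (Nos2, Ass1, Odc1 and Gch1 added), and 0 without libraries 17 to 24. LPS counts stayed within 1.5 times, at 5 in WT and 4 in AhR-KO cells with any library left out. With library totals the 5 LPS calls in WT were 4 higher and 1 lower, with Ass1 (0.95) under 2-fold and Odc1 (-1.14) called. Library totals moved the median of all genes most in LPS over unstimulated AhR-KO cells, from -0.03 to -0.52, and turned Asl in AhR-KO over WT after LPS (-0.011) and its interaction (-0.030). Odc1 turned in LPS over unstimulated AhR-KO cells without libraries 17 to 24 (0.25), and single libraries gave -0.30 to 0.17. In unstimulated AhR-KO over WT single libraries gave -0.013 to 0.19 for Asl and -0.36 to 0.015 for Gch1. None of the turned values passed the test, and their cause was not tested. No paired analysis was made because each library number occurs once and the labels name no animal shared between groups. If 1 animal gave both an unstimulated and an LPS-stimulated culture, the LPS and interaction tests treated its libraries as independent. Depth limits Nos2 without stimulation, at 0 to 143 counts per library.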

Other observations

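None of the 5 eosinophil markers was a DEG between genotypes, and the list summed to 15.9 to 148 CPM in LPS-stimulated WT and 14.95 to 93.4 CPM in LPS-stimulated AhR-KO cultures. Of the 6 stromal markers 1 was a higher DEG in AhR-KO cells after LPS, with sums of 2.20 to 17.03 CPM in WT and 12.6 to 33.8 CPM in AhR-KO cultures. Of the 7 alveolar macrophage markers 1 was a higher DEG in AhR-KO cells in either state, and their sums did not overlap between genotypes without stimulation (1435 to 1904 CPM in WT, 2378 to 3402 in AhR-KO) or after LPS (2085 to 3625 and 4316 to 6586 CPM).

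Among list genes under the 2-fold threshold, Fh1, the fumarase of the citric acid cycle, had 34.5 CPM in AhR-KO against 55.1 in WT BMDMs after LPS (log2 fold change -0.68, edgeR adjusted p = 0.00457). Ifngr2, a chain of the interferon-gamma receptor, had 363 against 252 CPM after LPS (0.53, edgeR adjusted p = 1.56e-04), whereas Ifngr1, the other chain of this receptor, had 39.3 against 61.8 CPM (-0.65, edgeR adjusted p = 0.00116). Hif1a had 151 against 210 CPM without stimulation (-0.47, edgeR adjusted p = 0.0113). These genes were chosen after their values were seen.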
